A study of Mus musculus with 10 samples.

Results

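Matrix metalloproteinases (MMPs) and their tissue inhibitors (TIMPs) were described in the mouse optic nerve head, where the axons of retinal ganglion cells leave the eye. The members were Mmp2, Mmp3, Mmp9, Mmp14, Mmp15, Mmp16 and Timp1 to Timp4, taken by their exact symbol in the probe annotation of the array. Of these 10 genes 9 were found, 5 MMPs and 4 TIMPs with 22 probe sets, among 12393 genes in all, and Mmp15 is not analysed here. Each of 10 arrays carried RNA from a pool of 2 nerve heads of male C57Bl/6 mice aged 6 to 8 weeks. In the high intraocular pressure (IOP) group (n = 5) a cannula in the anterior chamber had held the right eye at 30 mmHg for 1 h, and the tissue was taken 3 days later. In the control group (n = 5) the tissue came from the left eyes, which had no surgery, so that side, cannulation and pressure cannot be told apart. The number of mice was 10, so that high IOP and control pools share animals. The labels call the pools biological replicates, but do not say which pools share mice, and the tests below treat the pools as independent. In such bulk tissue fewer cells of a type and less RNA per cell cannot be told apart.

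MMPs are zinc-dependent proteases that cut collagens, proteoglycans and other proteins of the extracellular matrix. Most are made as inactive precursors, some are secreted and others are anchored in the cell membrane, and TIMPs block them by binding the active site. In the nerve head, astrocytes, fibroblasts, vessel cells and blood cells lie in and around a matrix of collagen, laminin and proteoglycans on which these enzymes act. The array measures RNA and says nothing of how much enzyme was active.

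Array medians of the signal ran from 414 to 475. High IOP replicate 1 stood apart: it correlated with its fellow arrays at 0.974 on average, where every other array reached at least 0.986. Its Gapdh control probes gave 2.07 times as much signal at the 3' end as at the 5' end, where the other arrays gave 1.53 to 1.73. The corresponding actin ratio did not single it out, at 2.10 against 2.13 in high IOP replicate 4. Among astrocyte and myelin markers of the nerve, Gfap was at 10644 or more and Mbp at 13490 or more on every array. Others were dimmer, with the astrocyte marker Slc1a2 at 124 to 269 and the myelin marker Mag falling to 733. Some markers of tissue outside the nerve varied widely, and the summed signal of 11 photoreceptor genes ran from 1388 to 10753 in high IOP pools and from 758 to 10791 in control pools. Of these 11 genes 10 had a positive log2 fold change, none passing the test, and their mean score differed by 0.45. The 11 genes correlated with each other by 0.78 on average, so their signs are not independent. The summed skeletal muscle signal varied less, from 975 to 1230 in high IOP pools and from 944 to 1344 in control pools. Tnni2 was the brightest gene of this list, at 533 to 1028, and Ckm stayed at 15.1 or less. The mean muscle score ran from -0.008 to 0.13 in high IOP pools and from -0.12 to -0.03 in control pools, which was not tested. Its genes correlated with each other by only -0.006 on average.

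No change in any of the 9 genes was detected. At a limma adjusted p under 0.05 the count was 0 of 9, against a background of 0% (0 of 12393 genes), and at an unadjusted p under 0.05 it was again 0 of 9, against 3.97% of all genes (492). By that unadjusted rule the count became 1 of 9, Mmp2, in 3 of 17 alternative fits, those without high IOP replicate 3, without control replicate 5 and with the replicate number as a block. In those fits 1044, 589 and 451 of the 12393 genes passed the same rule. Log2 fold changes were positive in 4 of 5 MMPs and 2 of 4 TIMPs, and in 47.25% of all genes. Their median was 0.04 over the 9 genes and -0.01 over all genes. The signals of the groups overlapped for all 9 genes, and 0.629% of all genes had groups that did not. For 7 of the 9 genes the 95% interval of the fold change on the brightest probe set did not reach 2-fold either way, Mmp2 and Mmp3 being the exceptions. Of all genes 95.5% had an interval within 2-fold. For 5 of the 9 genes the interval did not reach 1.5-fold on the brightest probe set. Dimmer probe sets of Mmp14, Timp2, Timp3 and Timp4 did pass 1.5-fold downward, with lower limits of -0.62, -0.80, -0.61 and -0.68 on the log2 scale. A probe set's signal depends on its own probes, so levels are compared here between arrays and not between genes.

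**Figure D1:**
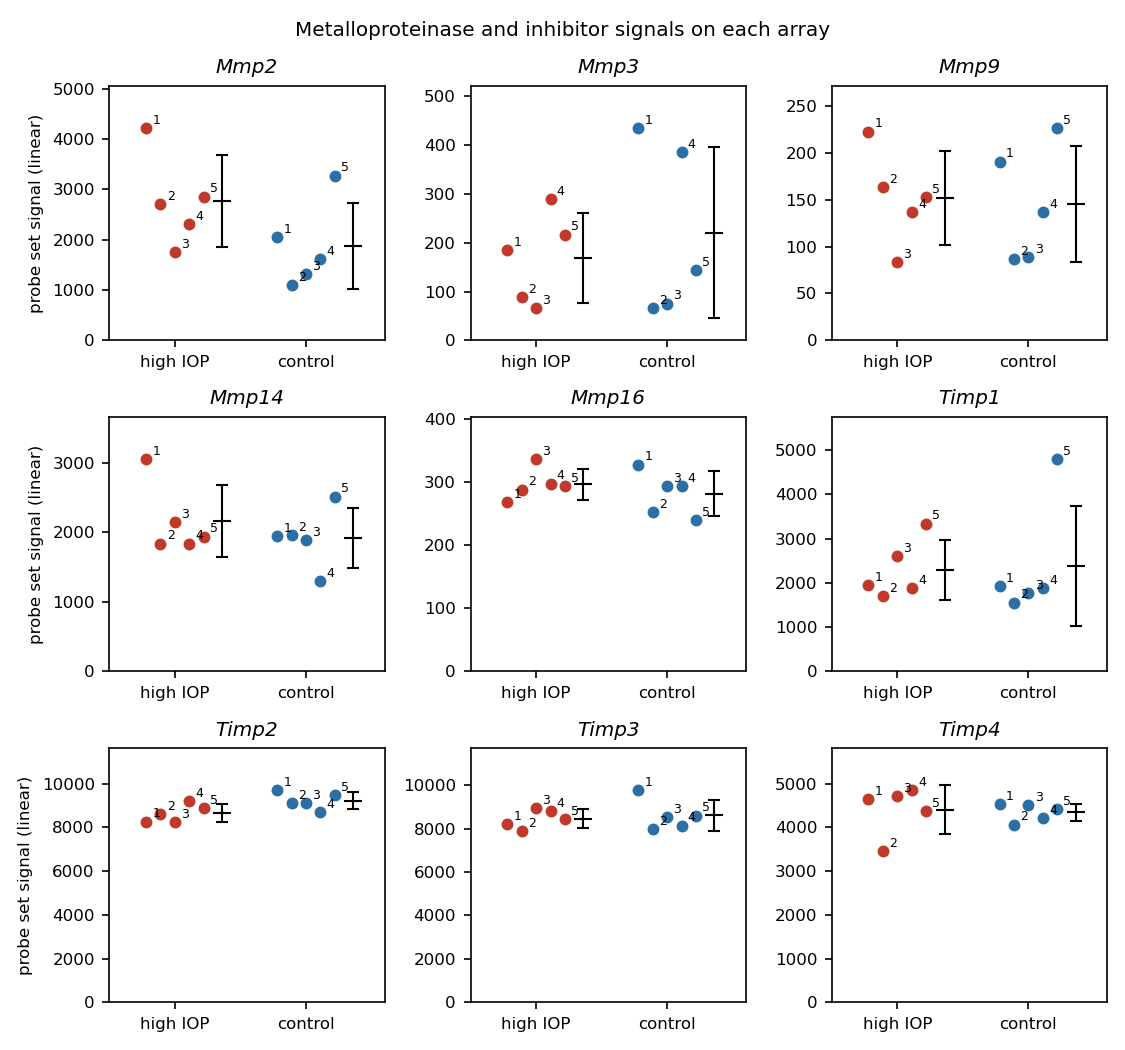
Probe set signal on a linear scale (vertical axis) for the brightest probe set of each of the 9 genes, in 5 high IOP and 5 control pools. Points are pools numbered by replicate, and the bar beside each group is its mean ± SD (n = 5). The groups overlap in every panel, and the points of Mmp2, Mmp3, Mmp9 and Timp1 are spread far more widely than those of Timp2 and Timp3.

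The gelatinases Mmp2 and Mmp9 cut denatured collagen and the type IV collagen of basement membranes. Mmp2 had signals of 4211, 2706, 1757, 2303 and 2856 in high IOP replicates 1 to 5, against 2060, 1095, 1322, 1620 and 3274 in control replicates 1 to 5. All 5 high IOP pools lay above the control median, but control replicate 5 exceeded 4 of them, so the groups overlapped. The means were 2767 ± 913 in high IOP and 1874 ± 862 in control (SD, n = 5 each), a log2 fold change of 0.61 (standard error 0.299, 95% interval -0.05 to 1.27, limma adjusted p 0.849). The two-sided exact permutation test over 252 splits of the arrays gave p = 0.119, where the smallest possible value is 0.00794. This was the largest change among the 9 genes in either direction. Another probe set of Mmp2 moved with it across the 10 arrays (Pearson r = 0.99, as a description) and had a log2 fold change of 0.63. The change depended on single pools, at 0.44 without high IOP replicate 1 and 0.83 without control replicate 5. Of the measured myelin markers 8 of 8 had a negative log2 fold change, none passing the test, and their mean score differed by -0.25. The 8 markers correlated with each other by 0.75 on average, so their signs are not independent. High IOP replicate 1 had the lowest myelin score, -0.77, and without it, an alternative chosen after seeing the data, the difference was -0.08, again with 8 of 8 genes negative. The summed myelin signal was 44671 to 67450 in high IOP and 56247 to 73128 in control, the dimmest marker on any array, Mag, was at 733, and their part in the Mmp2 values was not tested.

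Mmp9, which neutrophils store in granules and activated vessel and glial cells also make, was dim. Its signals were 223, 163, 83.2, 137 and 153 in high IOP replicates 1 to 5, against 191, 86.8, 88.4, 137 and 226 in control replicates 1 to 5. Each group held pools near the bottom and near the top of the range. The log2 fold change was 0.08 (interval -0.55 to 0.71, limma adjusted p 0.959, exact permutation p = 0.817), and the other probe set stood at -0.06. The sign of this small difference turned when high IOP replicate 1 (-0.06), control replicate 2 (-0.06) or control replicate 3 (-0.05) was left out.

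Mmp3, stromelysin-1, cuts proteoglycans, laminin and fibronectin and can activate other MMPs. Its signals were 185, 88.4, 66.0, 290 and 217 in high IOP replicates 1 to 5, against 434, 65.8, 75.4, 385 and 144 in control replicates 1 to 5. No other member varied as much, with a 6.60-fold span over the 10 arrays, and both the highest and the lowest pool were controls. Its within-group standard deviation of 0.996 on the log2 scale was larger than that of 99.5% of all genes, where the median gene had 0.214. The log2 fold change was -0.16 with an interval from -1.37 to 1.04 (limma adjusted p 0.956, exact permutation p = 0.778). That interval reaches 2.06-fold higher and 2.58-fold lower, so changes of such a size are not excluded by these arrays. The sign turned without high IOP replicate 2 (0.00057), high IOP replicate 3 (0.09), control replicate 1 (0.16) or control replicate 4 (0.12).

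Mmp14 and Mmp16 encode membrane-anchored enzymes, and Mmp14 together with Timp2 is known to activate the Mmp2 precursor at the cell surface. Mmp14 had signals of 3051, 1839, 2151, 1839 and 1940 in high IOP replicates 1 to 5, against 1947, 1963, 1892, 1298 and 2516 in control replicates 1 to 5. High IOP replicate 1 was the highest pool and control replicate 4 the lowest, while the other 8 pools lay between 1839 and 2516. The log2 fold change of Mmp14 was 0.17 (interval -0.24 to 0.58, adjusted p 0.853, exact permutation p = 0.429), and 0.04 without either high IOP replicate 1 or control replicate 4. A second, dimmer probe set of Mmp14 stood at -0.06. Mmp16 had signals of 268, 288, 336, 298 and 294 in high IOP replicates 1 to 5, against 328, 252, 293, 293 and 239 in control replicates 1 to 5. This was a narrow range of 1.40-fold, and the log2 fold change was 0.08 (interval -0.14 to 0.30, adjusted p 0.872, exact permutation p = 0.397). Its other probe set stood at -0.12 and followed the brighter one only weakly across arrays (r = 0.24).

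Timp1, an inhibitor that astrocytes and fibroblasts induce after injury, varied most among the inhibitors. Its signals were 1948, 1706, 2600, 1890 and 3342 in high IOP replicates 1 to 5, against 1931, 1555, 1776, 1884 and 4791 in control replicates 1 to 5. Most pools lay close together near the lower end, and the highest value of all came from an unoperated pool, control replicate 5. The means were 2297 ± 675 in high IOP and 2387 ± 1351 in control (SD, n = 5 each), while the log2 fold change was 0.04 (interval -0.62 to 0.69, adjusted p 0.984, exact permutation p = 0.897). Linear means and log2 means thus differed in sign, and without control replicate 5 the log2 fold change was 0.32.

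Timp2, which binds Mmp14 and Mmp2, was the steadiest of the 9 genes on its brightest probe set. Its signals were 8261, 8603, 8248, 9207 and 8894 in high IOP replicates 1 to 5, against 9689, 9124, 9091, 8701 and 9487 in control replicates 1 to 5. Of the high IOP pools 4 lay below the control median, and the groups overlapped. The log2 fold change was -0.09 (interval -0.24 to 0.06, adjusted p 0.849), and the exact permutation test gave p = 0.0635, the lowest of the 9 genes. Only 2.14% of all genes had a smaller within-group standard deviation.

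Timp3, which is held in the matrix and in Bruch's membrane below the retina, had signals of 8189, 7887, 8931, 8805 and 8420 in high IOP replicates 1 to 5. In control replicates 1 to 5 they were 9753, 7986, 8519, 8138 and 8598. Control replicate 1 was the highest pool, and the others lay together without regard to group. The log2 fold change was -0.02 (interval -0.20 to 0.15, adjusted p 0.956, exact permutation p = 0.730), and it changed sign under 2 other scalings of the arrays. Timp4, which astrocytes and vessel cells express, had signals of 4654, 3460, 4715, 4847 and 4375 in high IOP replicates 1 to 5, against 4525, 4067, 4510, 4210 and 4415 in control replicates 1 to 5. High IOP replicate 2 was the lowest pool. The log2 fold change of Timp4 was 0.01 (interval -0.21 to 0.23, adjusted p 0.984, exact permutation p = 0.921).

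Probe sets of the same inhibitor did not all give the same value. Of 13 TIMP probe sets 10 had a negative log2 fold change, and of 9 MMP probe sets 4 did, though probe sets of a gene share its RNA and are not independent. The 6 probe sets of Timp2 ranged from -0.43 to 0.08. The 4 brightest, with mean signals of 1938 to 8930, lay between -0.11 and 0.08, and the 2 dimmest, with mean signals of 233 and 231, stood at -0.43 and -0.40. These dim probe sets followed each other closely (r = 0.92 over 10 arrays), and one of the bright ones ran the opposite way to both (r = -0.67 and -0.78). The second probe set of Timp4 had a mean signal of 1303 ± 248 in high IOP and 1655 ± 258 in control (SD, n = 5 each), a log2 fold change of -0.35 with an interval from -0.68 to -0.02. It followed the brighter Timp4 probe set with r = 0.41. At an unadjusted limma p under 0.05 these 3 of 22 probe sets passed, all lower in high IOP, where 4.44% of all 22626 probe sets passed in either direction. None passed after adjustment over all probe sets (adjusted p 0.837 for each). The exact permutation p was 0.0476 and 0.0556 for the dim Timp2 probe sets and 0.0794 for that of Timp4. In high IOP replicate 1 the dim Timp2 probe sets had signals of 132 and 128, the lowest of the 10 arrays. The second Timp4 probe set had 1056 there, and 1020, its lowest, in high IOP replicate 2. Single probe sets were not fitted again without these arrays. The 4 probe sets of Timp3 agreed in sign, from -0.19 to -0.02.

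**Figure D2:**
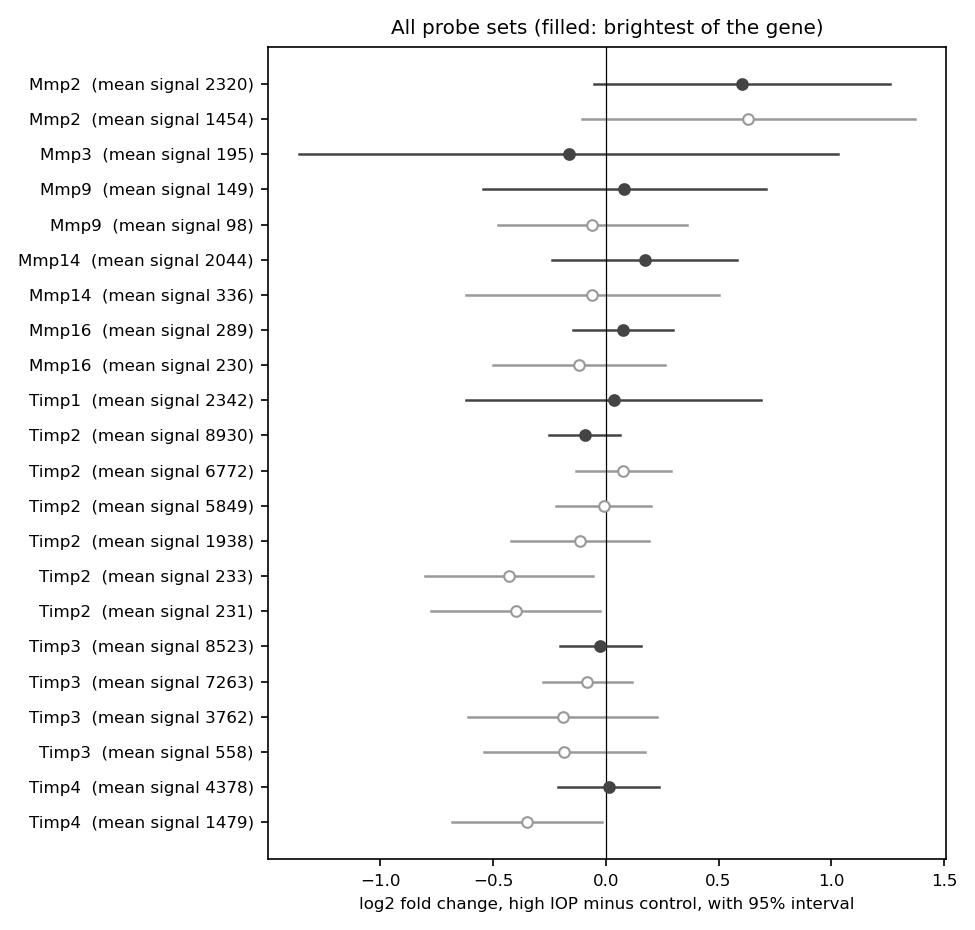
Log2 fold change, high IOP minus control, with its 95% confidence interval (horizontal axis) for all 22 probe sets, listed by gene and mean signal. Filled points are the brightest probe set of each gene. The intervals of 3 dimmer probe sets, at -0.43 and -0.40 for Timp2 and -0.35 for Timp4, lie below 0, and those of all filled points include it.

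Mmp3 and Timp1, the enzyme and the inhibitor with the widest span between pools, are shown with the 250 bases before their annotated start, since both are textbook targets of the AP-1 transcription factors, dimers of Fos and Jun proteins. The sequences are from RefSeq, build GRCm38.p6, both on the plus strand, at chr9:7445572-7445821 for Mmp3 and chrX:20869916-20870165 for Timp1, and capitals mark matches to the AP-1 letters TGANTCA.
Mmp3: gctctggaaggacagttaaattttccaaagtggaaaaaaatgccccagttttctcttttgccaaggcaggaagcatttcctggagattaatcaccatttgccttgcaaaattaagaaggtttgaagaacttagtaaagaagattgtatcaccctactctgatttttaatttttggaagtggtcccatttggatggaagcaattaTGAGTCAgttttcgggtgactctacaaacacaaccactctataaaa
Timp1: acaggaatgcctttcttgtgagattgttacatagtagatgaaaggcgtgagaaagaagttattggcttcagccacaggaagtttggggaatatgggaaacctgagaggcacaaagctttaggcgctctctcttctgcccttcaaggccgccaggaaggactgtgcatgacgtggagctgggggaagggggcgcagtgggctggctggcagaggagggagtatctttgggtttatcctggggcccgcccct
The window of Mmp3 holds 1 match, beginning 46 bases before the start, and that of Timp1 holds none in these letters. Promoters of 7 of the 10 genes were in the table, those of Mmp3, Mmp14, Mmp15 and the 4 TIMPs. Searched on both strands, TGANTCA matched in 1 of the 7 windows, against 6.75% of 32851 promoter windows of the same length. A TATA box (TATAAA) matched in 1 of 7, against 12.4% of all, a GC box (GGGCGG) in 5 of 7, against 32.7%, and an ETS site (AGGAAG) in 5 of 7, against 29.5%. No matches of different motifs overlapped in the 7 windows. A match describes letters and is not evidence that a factor was bound.

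Mmp2 and Mmp9 followed each other from pool to pool more closely than any other pair of the 9 genes. Pearson's r over the 10 arrays was 0.86 (permutation p = 0.00219, adjusted p = 0.0788 over 36 pairs) and Spearman's rho 0.79 (permutation p = 0.00863, adjusted p = 0.160), so neither passed after adjustment. Without control replicate 2 and high IOP replicate 1, the 2 pools farthest from the Mmp2 median, r was 0.77. Within the groups r was 0.97 over the 5 high IOP pools and 0.95 over the 5 control pools, as a description. High IOP replicate 4 and control replicate 4 had the same rounded Mmp9 signal of 137, with Mmp2 signals of 2303 and 1620. The next pairs by p were Mmp2 with Mmp14 (r = 0.59, rho = 0.38, permutation p = 0.0667 and 0.278, adjusted p = 0.663 and 0.765, r = 0.49 without the same 2 pools) and Timp3 with Timp4 (r = 0.62, rho = 0.79, permutation p = 0.0691 and 0.00889, adjusted p = 0.663 and 0.160, r = 0.78 without control replicate 1 and high IOP replicate 2). Over all 36 pairs r ran from -0.36 to 0.86. High IOP and control pools share mice, so the arrays are not fully independent.

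**Figure D3:**
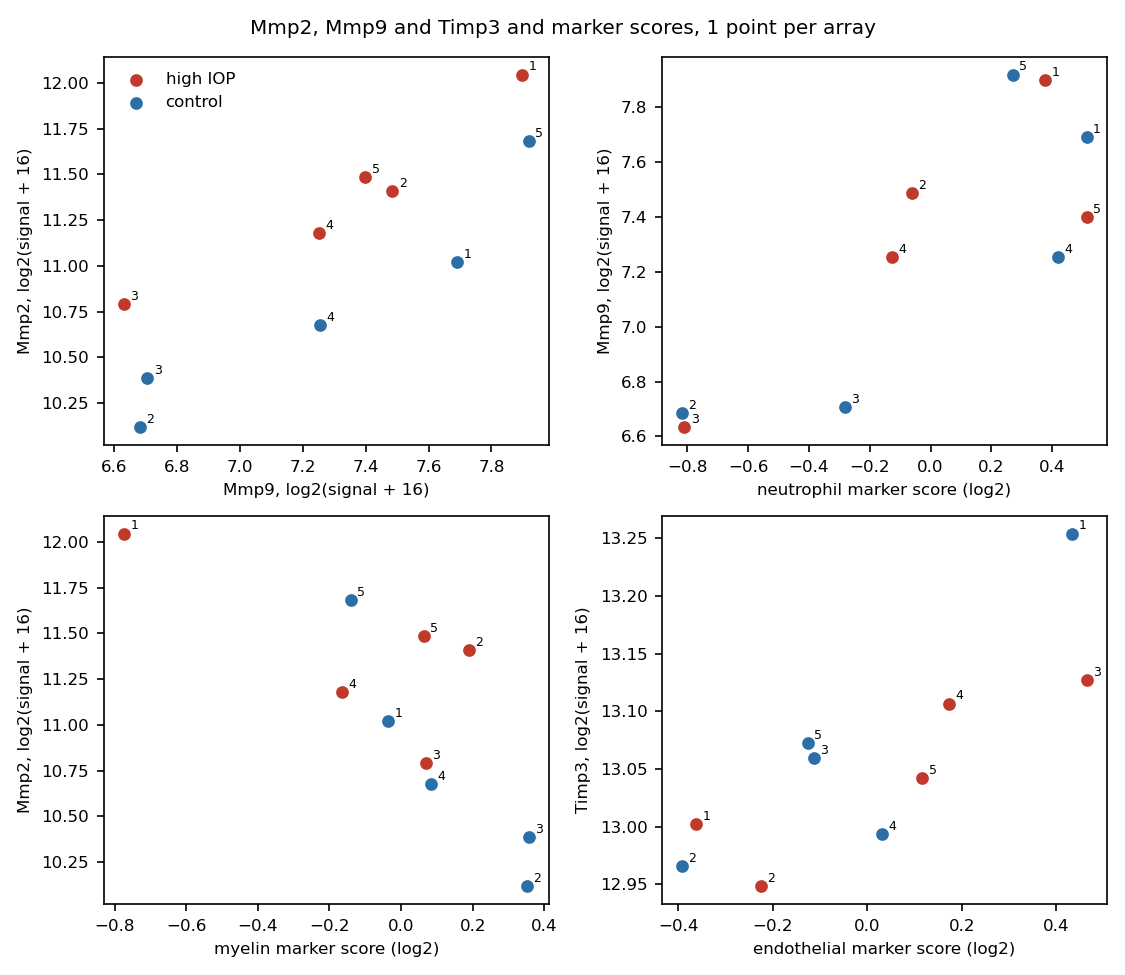
Each point is 1 pool, numbered by replicate, high IOP in red and control in blue, on log2 scales. The panels show Mmp2 against Mmp9 (r = 0.86), Mmp9 against the neutrophil score (r = 0.82), Mmp2 against the myelin score (r = -0.80) and Timp3 against the endothelial score (r = 0.82). In the first panel both groups span the trend, but high IOP pools have more Mmp2 signal for a similar Mmp9 signal. There r was 0.97 over high IOP pools and 0.95 over control pools, and this offset, seen after the fact, was not tested. In the neutrophil and endothelial panels the groups are mixed along the trend. In the myelin panel control replicates 2 and 3 have the highest scores and the lowest Mmp2 signals. High IOP replicate 1 lies at the other end, and the remaining pools of both groups lie between.

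The 9 genes were also set against the cell makeup of the pools as read from marker genes, in 117 relations with 13 cell type scores, of which 0 passed after adjustment. To score a cell type, each marker's log2 value was centred on its own average across arrays, and the centred values of the list were averaged for each array. Of the 117 relations 13 had an unadjusted permutation p under 0.05. After adjustment the smallest was 0.130 for Pearson's r and 0.0550 for Spearman's rho. Timp3 followed the endothelial score (10 of 10 markers measured) with r = 0.82 (permutation p = 0.00234, adjusted p = 0.130, rho = 0.79, permutation p = 0.00852, adjusted p = 0.332). Without control replicate 1 and high IOP replicate 2 that r was 0.79. Mmp16 followed it with r = 0.83 (permutation p = 0.00334, adjusted p = 0.130, rho = 0.92, permutation p = 0.00047, adjusted p = 0.0550), and with r = 0.95 without control replicates 2 and 5. This holds for the brighter Mmp16 probe set, and the other, which followed it with r = 0.24, was not set against the score. The summed endothelial signal was 17556 to 23645 in high IOP and 15346 to 22834 in control.

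Mmp9 followed the score of 8 measured neutrophil markers with r = 0.82 (permutation p = 0.0045, adjusted p = 0.132, rho = 0.68, permutation p = 0.0336, adjusted p = 0.379), and with r = 0.62 without control replicate 2 and high IOP replicate 3. Mmp3 followed it with r = 0.80 (permutation p = 0.00784, adjusted p = 0.183, rho = 0.82, permutation p = 0.0064, adjusted p = 0.332), and with r = 0.74 without control replicates 1 and 4. S100a8 and S100a9, abundant calcium-binding proteins of neutrophils, ranged over the 10 pools from 124 to 2495 and from 20.1 to 2861. The receptor Cxcr2 and the granule enzyme Mpo reached at most 24.3 and 25.1, and the 8 markers correlated with each other by only 0.15 on average. The summed signal was 738 to 4385 in high IOP and 624 to 5902 in control, and both groups held pools near both ends. Mmp2 was lower where the myelin score (8 of 10 markers measured) was higher, with r = -0.80 (permutation p = 0.00300, adjusted p = 0.130, rho = -0.77, permutation p = 0.0122, adjusted p = 0.357), and with r = -0.59 without control replicate 2 and high IOP replicate 1. With the astrocyte score Mmp2 had r = -0.67 (rho = -0.59, adjusted p = 0.396 and 0.379), and r = -0.40 without the same 2 pools. With the score of meningeal and scleral fibroblasts it had r = 0.57 (rho = 0.70, adjusted p = 0.415 and 0.379), and r = 0.80 without them. The part of these cell types in the levels of the 9 genes was not tested.

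**Figure D4:**
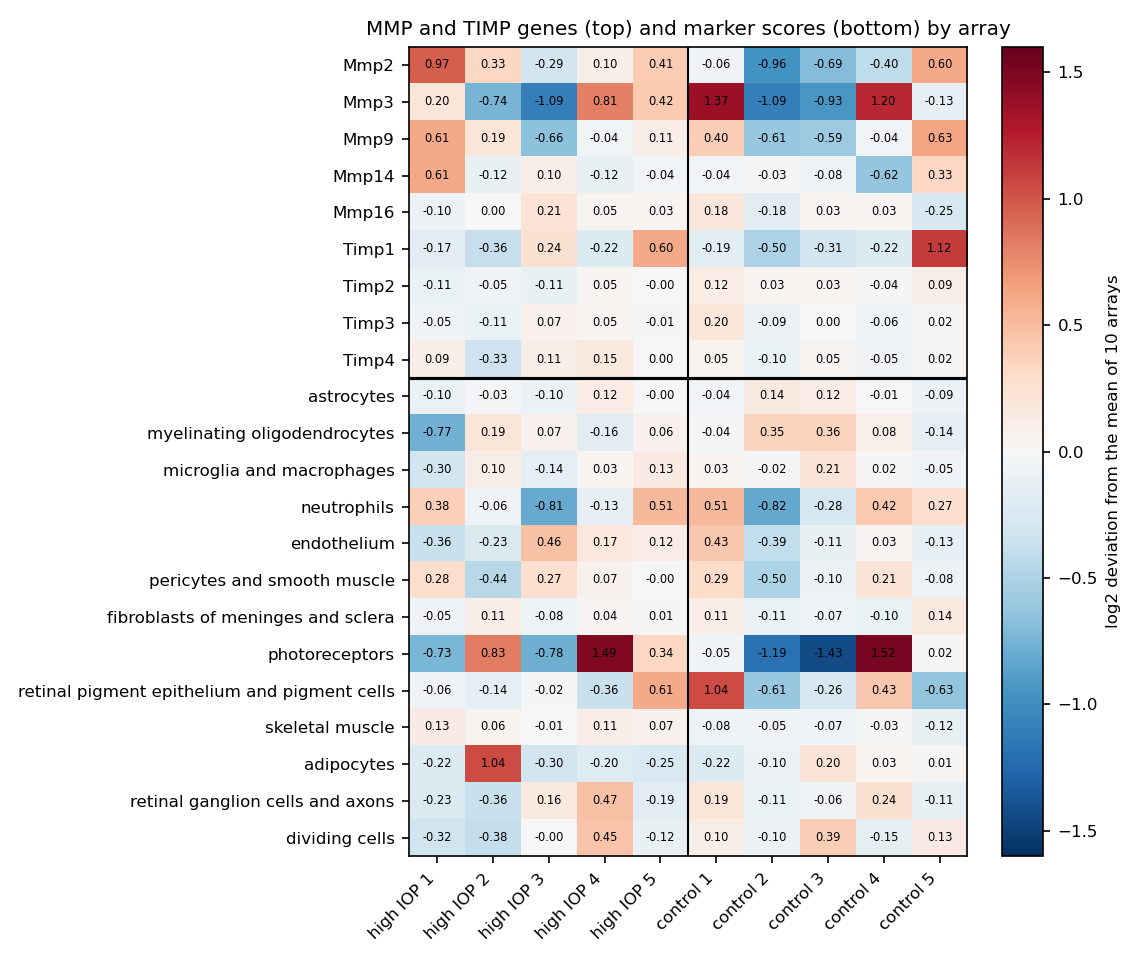
Deviation of each pool from the mean of the 10 arrays on the log2 scale (colour and printed value), for the 9 genes above the line and for 13 marker scores below it. High IOP pools are the 5 columns on the left and control pools the 5 on the right. Mmp3 is low in high IOP replicate 3 and in control replicates 2 and 3, where the neutrophil score is also below 0, while high IOP replicate 4, with a neutrophil score of -0.13, has a high Mmp3 value.

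For each gene the 3 genes with the most similar pattern over the 10 arrays, among the brighter genes of the array, are given with Pearson's r as a description, since the nearest of 6195 or 6196 genes is close by selection. Those of Mmp2 were Niban2 (0.96), Tnfrsf1a (0.96), a receptor for tumour necrosis factor, and Dap (0.95). Those of Mmp9 were Maea (0.94), Mrpl49 (0.92) and Mxra8 (0.91), and those of Mmp3 were Stk38 (0.90), Rplp0 (0.89) and Ngdn (0.86). Mmp14 was nearest to Slc12a8 (0.96), Sh3d19 (0.93) and Fndc1 (0.92). Mmp16 was nearest to Icam2 (0.86) and Plvap (0.85), which are endothelial genes, and to Acer2 (0.84). Among the inhibitors, Timp1 was nearest to Mrps6 (0.89), Pdlim4 (0.89) and Mlf2 (0.88), and Timp2 to Copa (0.93), Plekha5 (0.91) and Kpna4 (0.90). Timp3 was nearest to Mgp (0.92), an inhibitor of calcification made by vessel walls, Ppp2r1b (0.89) and Fas (0.89), and Timp4 to Rrp1b (0.94), Casp1 (0.87) and Il6ra (0.85).

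No change was detected in the wider protease system either. The 5 lists of related genes held 13, 15, 31, 36 and 29 measured genes. Of these 0 passed at a limma adjusted p under 0.05, and 6 genes had an unadjusted p under 0.05, all higher in high IOP, where 2.65% of all genes were higher and 1.32% lower by that rule. Of 13 other measured MMPs 8 were higher and 5 lower (median log2 fold change 0.03), with Mmp11 at 0.23, Mmp23 at 0.21, Mmp7 at -0.13 and the dim Mmp1a at -0.23 (-0.11 without high IOP replicate 1). Of 15 ADAM and ADAMTS proteases, which shed membrane proteins and cut proteoglycans, 8 were higher and 7 lower (median 0.01). Among them Adamts4, which cuts lecticans, averaged 3801 ± 1174 in high IOP and 4593 ± 796 in control (SD, n = 5 each), a log2 fold change of -0.32, and -0.13 without high IOP replicate 1. Adam12 stood at -0.23, with another probe set at -0.63. It was -0.31 without high IOP replicate 2 and -0.12 without high IOP replicate 3. Adam9 stood at -0.25, and at -0.07 without high IOP replicate 1. Adamts5 stood at 0.14, with another probe set at -0.09, and at 0.06 without control replicate 1.

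Among 31 activators, inhibitors and partners 15 were higher and 16 lower, with a median of -0.01. Tfpi2, a secreted inhibitor of serine proteases, averaged 434 ± 70.8 in high IOP and 340 ± 59.3 in control (SD, n = 5 each), with a log2 fold change of 0.34 (standard error 0.137, limma adjusted p 0.849), and was 1 of the 6 genes. A2m, which traps proteases of many classes, stood at 0.41, and at 0.26 without control replicate 2. Itgb1 and Cldn1 stood at -0.20 and -0.46, and at -0.10 and -0.22 without high IOP replicate 1. Of 5 other probe sets of Itgb1, from -0.38 to 0.08, 2 had the opposite sign. Of 3 other probe sets of Cldn1, from -0.13 to 0.03, 2 did. Of 36 matrix substrates 26 were higher and 10 lower (median 0.07), where 47.25% of all genes were higher. The 6 genes included 3 substrates, the laminin chain Lama2 (0.27) and the collagen chains Col18a1 (0.29) and Col5a1 (0.21, with another probe set at -0.24). The proteoglycan Vcan stood at -0.29, and at -0.15 without high IOP replicate 1. Of 29 upstream regulators 16 were higher and 13 lower (median 0.03). Junb, a subunit of AP-1, averaged 174 ± 45.6 in high IOP and 122 ± 29.1 in control (SD, n = 5 each), with a log2 fold change of 0.45 (standard error 0.184). Tgfb1, a growth factor that raises matrix production, stood at 0.45, and these were the remaining 2 of the 6 genes. Snai1 and Tnfrsf1a stood at 0.35 and 0.14, and at 0.23 without control replicate 2 and 0.08 without high IOP replicate 1. All 20 genes named from these lists had a limma adjusted p of 0.849.

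**Figure D5:**
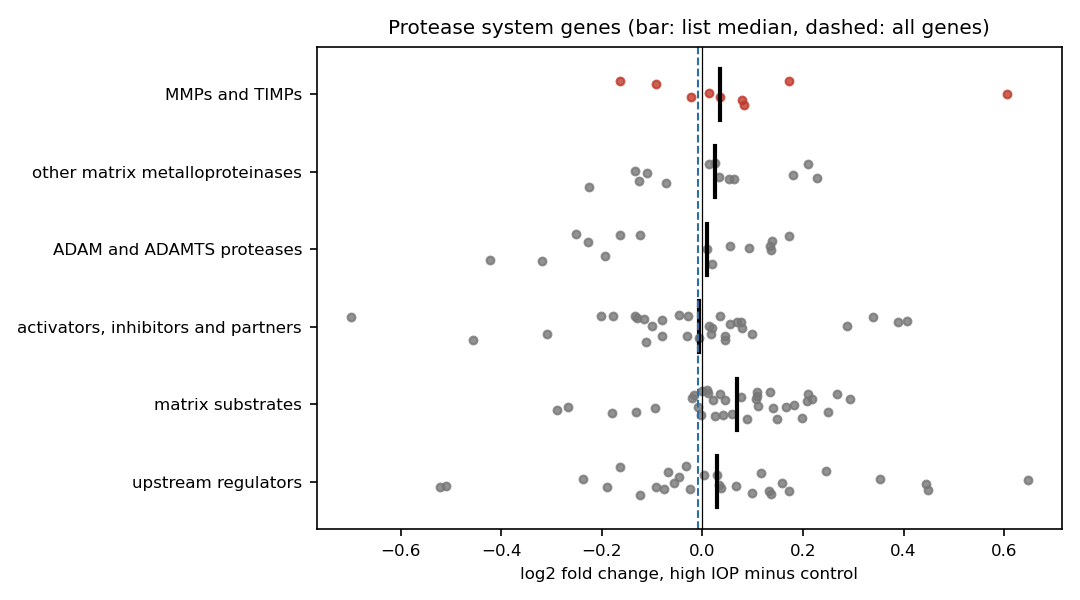
Log2 fold change, high IOP minus control (horizontal axis), with 1 point per gene, for the 9 MMPs and TIMPs and 5 lists of related genes. Black bars are list medians, from -0.01 to 0.07, and the dashed line is the median of all genes at -0.01. Mmp2 at 0.61 lies farthest from 0 among the 9.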

How the data were processed

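Per the labels' protocols, amplified and biotin-labelled material of each pool went on 1 array. The authors deposited probe set intensity on a linear scale for 22690 probe sets. Summarisation, background correction and normalization: not given in the sources used here. No detection calls were used. Precision is limited by the number of arrays. Values were put on log2(signal + 16), a scale on which fold changes of dim genes are understated. After 64 control probe sets were left out, 20380 probe sets had 1 gene symbol in the platform annotation, 691 several and 1555 none. A gene was represented by its brightest probe set (by mean log2 value over all arrays), without a filter on dim genes.

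Groups were compared with limma 3.58.1 in R 4.3.3 (lmFit, eBayes, no covariates), high IOP minus control, with Benjamini-Hochberg adjustment over 12393 genes, or over 22626 probe sets where probe sets are given. The test was checked on simulated data. Exact permutation tests used all 252 splits, and correlations 100000 resamples, both two-sided, run with SciPy 1.17.1, pandas 2.3.3 and NumPy 2.4.6 under Python 3.11.15, and figures were drawn with Matplotlib 3.10.9. The p-values measure the spread between these pools.

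The members and the gene lists were chosen with earlier results of these data known. Named by rule were all members, up to 4 genes of each related list with the smallest unadjusted p, and the 3 genes most like each member among genes with a mean signal above the median. Alternatives were a pseudocount of 1, quantile normalization, arrays scaled to equal medians, averaging a gene's probe sets, testing all probe sets, dropping the dimmest 25% of genes, a trended robust variance, the replicate number as a block, and leaving out each array.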

Additional observations from a re-analysis of the deposited data

Results flagged for a closer look

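The highest or lowest pool of a group stood far from the other 4 in 5 of 44 groups examined, 2 for each of the 22 probe sets, where chance alone gives about 2.2. Timp1 had a signal of 4791 in control replicate 5, against a control median of 1884. A dimmer Timp2 probe set had 7186 in high IOP replicate 1, against a high IOP median of 5660. Control replicate 1 was the highest control pool on 3 Timp3 probe sets, with signals of 8710, 5266 and 846 against control medians of 7203, 3811 and 566. These probe sets measure the same gene in the same pool and are not independent.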

How the results depend on the processing

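Over the 18 alternatives the count of genes called stayed at 0 for the 9 members and for all genes, and adjusted p of the members ran from 0.561 to 1.00. The median log2 fold change of the 9 genes, 0.04, was -0.059 over all 22 probe sets, and ran from -0.049 (without control replicate 2) to 0.13 (without control replicate 1) with an array left out. Mmp2, Mmp14 and Timp2 kept their sign in the 17 alternatives that give 1 value per gene. Among single probe sets Mmp14 also stood at -0.06 and Timp2 at 0.08. Timp3, at -0.02, was 0.014 after quantile normalization and 0.0038 with equal array medians, and with the mean over probe sets Mmp16 was -0.020 and Timp4 -0.17. With 1 array left out Mmp3 ran from -0.46 to 0.16, Mmp9 from -0.059 to 0.26, Timp1 from -0.11 to 0.32, Timp3 from -0.049 to 0.023 and Timp4 from -0.024 to 0.10, each crossing 0, and the cause was not tested. With the replicate block Mmp2 had an adjusted p of 0.888 at the same 0.61, and no call at an adjusted p under 0.05 changed. At an unadjusted p under 0.05 Mmp2 passed with the block (unadjusted limma p 0.0225), without high IOP replicate 3 (0.0324) and without control replicate 5 (0.00832), and no member did in the other 14. The numbers were not taken as pairs: deviations of pools of the same number correlated at -0.080 to 0.21, and 2 of 5 high IOP pools correlated best with the control pool of their own number. Genes at an unadjusted p under 0.05, 492 in all, numbered 451 with the replicate block, 1044 without high IOP replicate 3, 589 without control replicate 5, and 1004 among all probe sets. Background correction could not be varied.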

Other observations

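Probe sets of Timp3 differed in how far they spread although they moved together across the pools (r from 0.73 to 0.94 between them, as a description). The brightest, with a mean signal of 8523, spanned 1.24-fold over the 10 arrays, the next, at 7263, spanned 1.34-fold, and those at 3762 and 558 spanned 2.33-fold and 1.96-fold. Timp2 showed the same order at its ends, 1.18-fold for the brightest probe set and 2.55-fold for each of the 2 dimmest.

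Timp4 was lowest in high IOP replicate 2, the pool with the highest adipocyte score (1.04 on the log2 scale). There the summed signal of 6 measured adipocyte genes was the highest in the study at 1683, and at most 723 in control pools, and Adipoq reached 176. Over the 10 arrays Timp4 and this score had r = -0.86 (permutation p = 0.0146, adjusted p = 0.213) and rho = -0.58 (permutation p = 0.0885, adjusted p = 0.384). Without that pool and control replicate 2 r was -0.48, so the relation rests on these pools.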
